A study of Zea mays with 20 samples.

Results

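The C4 and Calvin cycle enzymes described here are the products of 5 maize genes, pep1, pdk1, pdrp1, rbcs1 and rca1, measured in the ear internode, the piece of stem that bears the ear. They were picked by name: a probe set belonged to the group when the array's annotation or its RefSeq entry gave one of these names, in that spelling. That gave 5 of the 1108 genes listed for the array and 9 of the 17555 maize probe sets on the array, and 8 of the 9 passed the filter on low values (a log2 value above 5 on at least 2 arrays). The ninth, 1 of 5 for pdk1, lay between 1.78 and 1.83 on every array, at the floor of the scale, and was not tested. Counts and medians of members below are over these 8 probe sets, not over genes. pdk1 therefore weighs more in them than the genes with a single probe set.

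In maize, carbon dioxide is first fixed in the leaf mesophyll onto phosphoenolpyruvate and handed to the bundle sheath as a C4 acid, where it is released to Rubisco and enters the Calvin cycle. pep1 encodes a phosphoenolpyruvate carboxylase, the enzyme of the first step. pdk1 encodes pyruvate phosphate dikinase, which regenerates phosphoenolpyruvate from pyruvate, and pdrp1 encodes the regulatory protein that switches the dikinase on and off by phosphorylation. rbcs1 encodes a small subunit of Rubisco, and rca1 encodes Rubisco activase, which frees the active site of Rubisco from bound sugar phosphates. These enzymes are known best from leaves. The green outer tissue of a stem also holds chloroplasts.

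The plants were 5 recombinant inbred lines of F288 by F271, grown untreated in an irrigated field. They differ in their alleles at 4 quantitative trait loci of lignin and of how well the cell wall is degraded. The favorable lines, RIL99 and RIL54, have the favorable allele at all 4 loci. In RIL39 and RIL71 the locus in bin 6.06, a segment of chromosome 6, has the unfavorable allele, and in RIL118 the locus in bin 9.02, a segment of chromosome 9, does. Internodes were taken at 2 stages, emerging tassel and early silking, and each of the 10 groups has 2 arrays, which makes 20. The lines are recombinants of both parents, so they differ at other loci too, and RIL118 is the only line of its kind. The labels do not say whether the 2 arrays of a group came from separate plants, so the p-values measure the spread between arrays of a line, which may be technical, and not the spread between lines.

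Values are log2 expression values of a one-colour oligonucleotide array, and a probe set is called changed when its p-value, adjusted over all 11033 tested probe sets, is under 0.05. On each array between 57.2% and 58.0% of the maize probe sets lay above 5, and arrays of a group correlated at 0.934 to 0.994. The lowest of these belonged to the tassel arrays of RIL118, 1 of which was closer to an array of another group (0.939) than to its partner. Secondary-wall cellulose genes, which mark the stem, were all 4 above the filter, with a summed log2 level of 14.59 to 15.42 at tassel and 11.72 to 14.47 at silking. Of 12 floral MADS genes, 10 were below the filter, but zap1 was bright, with a mean of 11.93. The summed level of that list was 11.06 to 12.19 at tassel and 12.10 to 12.67 at silking. Of 5 meristem genes 4 passed, with summed levels of 10.49 to 11.69 at tassel and 11.20 to 11.84 at silking. Of 9 epidermis and cuticle genes 4 passed, at 10.63 to 12.36 and 9.32 to 11.46. In bulk tissue, fewer cells of a type and less RNA per cell cannot be told apart.

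**Figure D1:**
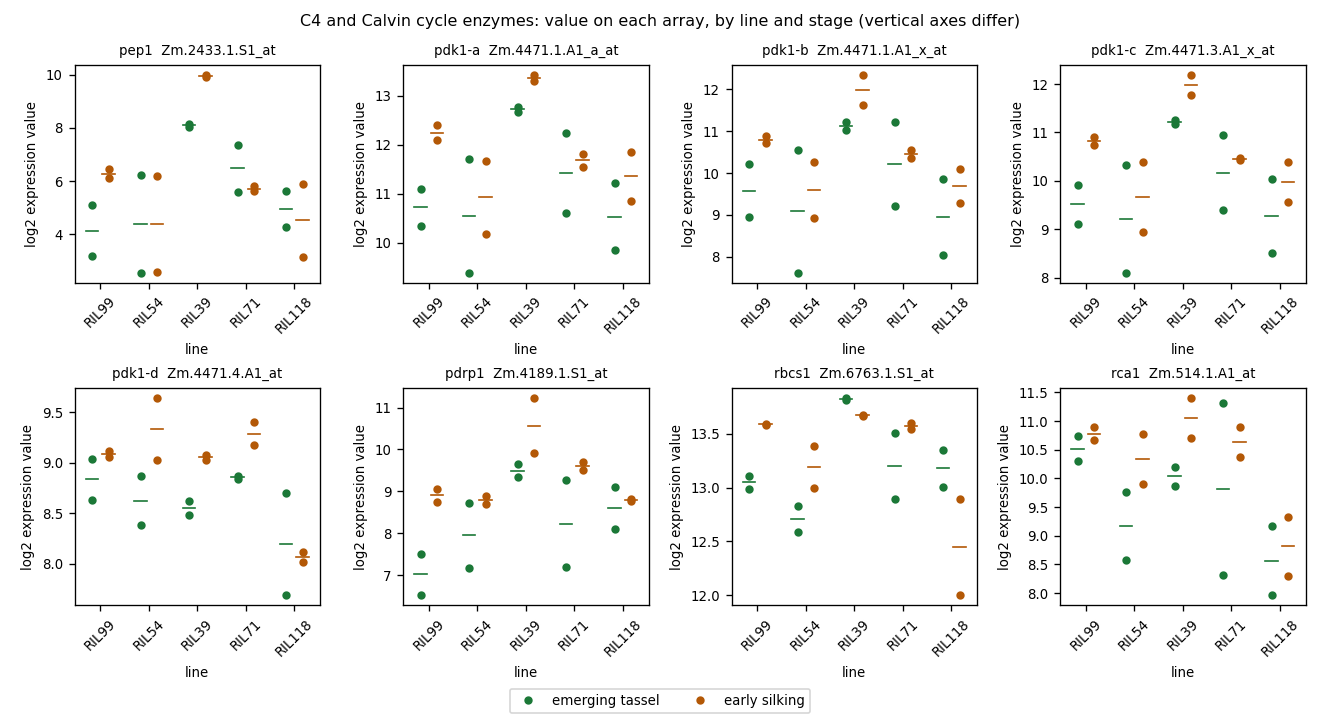
Log2 expression value (vertical axis, a separate range for each probe set) of the 8 tested probe sets on each of the 20 arrays, by line (horizontal axis) and stage (colour); points are arrays and short bars are the mean of the 2 arrays. RIL39 holds the highest pep1 values, 8.05 to 9.99, and the 2 arrays of RIL54 lie far apart at both stages.

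pep1 (gene 542372, chromosome 9) spanned the widest range of the group. At emerging tassel its log2 values were 5.09 and 3.18 in RIL99, 6.23 and 2.56 in RIL54, 8.05 and 8.15 in RIL39, 5.59 and 7.36 in RIL71, and 4.27 and 5.63 in RIL118. At early silking they were 6.12 and 6.45 in RIL99, 6.19 and 2.59 in RIL54, 9.91 and 9.99 in RIL39, 5.63 and 5.81 in RIL71, and 3.16 and 5.88 in RIL118. All 4 arrays of RIL39 were above all 16 others. In RIL54 one array of each stage lay near the floor of the scale and the other did not. By mean over both stages the order was RIL39 (9.02 ± 1.07, SD, n = 4), RIL71 (6.10 ± 0.85), RIL99 (5.21 ± 1.47), RIL118 (4.74 ± 1.26) and RIL54 (4.39 ± 2.10). Between pairs of lines, 9.18% to 24.7% of the table was called. RIL39 exceeded RIL71, next in that order, by 2.92 (SE 0.93, limma adjusted p = 0.0496), and no other neighbours were called different (adjusted p of 0.63 to 0.83). The SD of a line takes in both stages, while these tests use the spread within groups, pooled over all groups.

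pdk1 (gene 542759, chromosome 6) has 4 tested probe sets, called pdk1-a to pdk1-d here in the order of their identifiers, which the plots print in full. The first 3 moved together. pdk1-a was at 11.10 and 10.35 in RIL99, 11.70 and 9.39 in RIL54, 12.67 and 12.78 in RIL39, 10.61 and 12.24 in RIL71, and 9.84 and 11.22 in RIL118 at tassel. At silking it was at 12.39 and 12.09 in RIL99, 11.67 and 10.18 in RIL54, 13.42 and 13.29 in RIL39, 11.81 and 11.55 in RIL71, and 10.86 and 11.86 in RIL118. The 4 RIL39 arrays were again above all others, and the same array of RIL54 was the lower one at each stage. pdk1-b and pdk1-c correlated with it at 0.974 and 0.994 over the 20 arrays, and ran from 7.62 to 12.34 and from 8.10 to 12.18. The identifiers of these last carry an x, the array maker's mark for probes shared with other transcripts, so a related transcript can add to their signals. RIL39 was first in the order of lines at each of the 3, with RIL71 and RIL99 behind it, and no neighbours in the order were called different. The smallest adjusted p among these pairs was 0.0765, for the gap of 1.49 (SE 0.53) between RIL39 and RIL71 at pdk1-a.

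pdk1-d showed another pattern. It was at 8.63 and 9.04 in RIL99, 8.38 and 8.87 in RIL54, 8.48 and 8.62 in RIL39, 8.87 and 8.84 in RIL71, and 7.69 and 8.70 in RIL118 at tassel. Its silking values were 9.12 and 9.06 in RIL99, 9.64 and 9.03 in RIL54, 9.03 and 9.07 in RIL39, 9.17 and 9.40 in RIL71, and 8.02 and 8.11 in RIL118. RIL39 was not high here, and 3 of the 4 RIL118 arrays were below all arrays of the other lines. RIL118 was the last of the order at 8.13 ± 0.42 (SD, n = 4) and lay 0.67 (SE 0.21) below RIL39, the line before it (limma adjusted p = 0.0322). Over the 20 arrays it correlated at 0.24 to 0.31 with the other 3. A value for pdk1 therefore depends on the probe set read, and the name alone does not say which transcript each one detects.

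pdrp1 (gene 732785, chromosome 2) was at 7.51 and 6.51 in RIL99, 8.73 and 7.18 in RIL54, 9.65 and 9.34 in RIL39, 7.20 and 9.27 in RIL71, and 8.10 and 9.10 in RIL118 at tassel. On the silking arrays it was at 8.75 and 9.06 in RIL99, 8.89 and 8.71 in RIL54, 11.23 and 9.91 in RIL39, 9.51 and 9.70 in RIL71, and 8.78 and 8.81 in RIL118. Every RIL39 array was above all 8 arrays of the favorable lines, and in 3 of 5 lines both silking arrays were above both tassel arrays. The order of lines was RIL39 (10.03 ± 0.83, SD, n = 4), RIL71 (8.92), RIL118 (8.70), RIL54 (8.37) and RIL99 (7.96). No neighbours in it were called different (smallest limma adjusted p = 0.123, RIL39 against RIL71).

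rbcs1 (gene 542212, chromosome 4) had the narrowest spread between arrays of a group, with a median gap of 0.18 between them. At tassel it was at 12.99 and 13.11 in RIL99, 12.83 and 12.59 in RIL54, 13.82 and 13.84 in RIL39, 12.89 and 13.51 in RIL71, and 13.01 and 13.35 in RIL118. Silking gave 13.58 and 13.59 in RIL99, 13.39 and 12.99 in RIL54, 13.67 and 13.67 in RIL39, 13.55 and 13.60 in RIL71, and 11.996 and 12.89 in RIL118. All RIL39 arrays were above the other lines, and the RIL118 array at 11.996 was below all others. Maize has more than 1 gene for the small subunit, and the probe set may read related transcripts as well. The order was RIL39 (13.75 ± 0.09, SD, n = 4), RIL71 (13.39), RIL99 (13.32), RIL54 (12.95) and RIL118 (12.81 ± 0.58), and no neighbours were called different (smallest limma adjusted p = 0.210).

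rca1 (gene 541712, chromosome 4) was at 10.74 and 10.31 in RIL99, 9.76 and 8.58 in RIL54, 10.20 and 9.88 in RIL39, 8.32 and 11.32 in RIL71, and 7.96 and 9.17 in RIL118 at tassel. At silking it was at 10.67 and 10.90 in RIL99, 10.77 and 9.90 in RIL54, 11.40 and 10.71 in RIL39, 10.38 and 10.89 in RIL71, and 8.30 and 9.33 in RIL118. It was lowest in RIL118, where 2 arrays were below all arrays of other lines, and the tassel arrays of RIL71 differed by 3.0. Unlike the other members except pdk1-d, rca1 did not have RIL39 first: the order was RIL99 (10.65 ± 0.25, SD, n = 4), RIL39 (10.55), RIL71 (10.23), RIL54 (9.76) and RIL118 (8.69 ± 0.66). No neighbours were called different (smallest limma adjusted p = 0.199, RIL54 against RIL118).

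The first comparison was between the stages, early silking minus emerging tassel over all lines. pdrp1 rose, by 1.08 on the log2 scale (SE 0.30, 2.11-fold, limma adjusted p = 0.00635), and its mean was higher at silking in 5 of 5 lines. The pdk1 probe set pdk1-d rose by 0.35 (SE 0.13, adjusted p = 0.0298), with a higher mean in 4 of 5 lines. These 2 of 8 compare with 67.7% of the probe sets called in the whole table in either direction, and 40.9% called higher, so the group held no more calls than the table. The members' median difference was 0.70, and that over all tested probe sets was 0.12.

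Values of the other 6 did not pass the test. The 3 pdk1 probe sets that moved together were at 0.72 (SE 0.34, limma adjusted p = 0.0757) for pdk1-a, 0.71 (adjusted p = 0.143) for pdk1-b and 0.70 (adjusted p = 0.0770) for pdk1-c. rca1 was at 0.70 (SE 0.35, adjusted p = 0.0898), and like those 3 had a higher mean at silking in 5 of 5 lines. pep1 was at 0.56 (SE 0.59, adjusted p = 0.410) and was higher in 2 of 5 lines. rbcs1 was at 0.10 (SE 0.12, adjusted p = 0.471), higher in 3 of 5 lines. The amount of RNA moved with stage, at 113.41 to 417.25 ng at tassel and 53.001 to 201.72 ng at silking. With the amount as a covariate, pdrp1 was at 0.58 (adjusted p = 0.272) and the call was lost, and pdk1-b was at -0.02. The pdk1-d call was lost under 11 of 29 alternatives, and without RIL118 the value of rbcs1 passed at 0.31 (adjusted p = 0.0186).

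Within single lines, 1 of 8 members was called in 1 line: pdrp1 rose by 1.89 in RIL99 (SE 0.66, limma adjusted p = 0.0342), where 45.2% of the table was called in either direction and 27.3% higher. The other lines had 0 of 8 members called (limma; 1 with an unadjusted p under 0.05 in each of RIL54 and RIL118, 0 in RIL39 and RIL71), beside 36.9% of the table in RIL54, 27.1% in RIL39, 32.8% in RIL71 and 11.7% in RIL118. Leaving out single arrays or changing the processing ended this call in 5 of 27 alternatives. pdrp1 was at 1.37 in RIL71, 1.08 in RIL39, 0.84 in RIL54 and 0.20 in RIL118 (SE 0.66 in each line), none of them called. The pep1 values ran from 2.15 in RIL99 and 1.85 in RIL39 to -0.75 in RIL71 (SE 1.32), none of them called. In 2 of 5 lines, RIL99 and RIL39, both silking arrays of pep1 were above both tassel arrays. The SE is pooled over all groups, while the RIL39 arrays differed at pep1 by 0.10 at tassel and 0.08 at silking. rbcs1 was at 0.54 in RIL99 and at -0.74 in RIL118 (SE 0.27, adjusted p = 0.119 and 0.0950). A test of the stage change differing among the 5 lines called 0 of the 8 members, with 6.15% of the table called. The nearest was rbcs1 (F = 4.08, adjusted p = 0.141; 1 of 8 had an unadjusted p under 0.05), which passed without the second silking array of RIL118.

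The comparison among lines asked whether the level, over both stages, differed between any of the 5 lines. The test called 6 of the 8 members and 44% of the table. They were pep1 (limma adjusted p = 0.00821), rbcs1 (0.00923), pdk1-d (0.0139), pdk1-a (0.0232), pdrp1 (0.0256) and pdk1-c (0.0292). The exceptions were rca1 (adjusted p = 0.0510) and pdk1-b (0.0583). Without both second RIL39 arrays, which leaves 1 array in each RIL39 group, fewer members and fewer probe sets of the whole table were called.

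**Figure D2:**
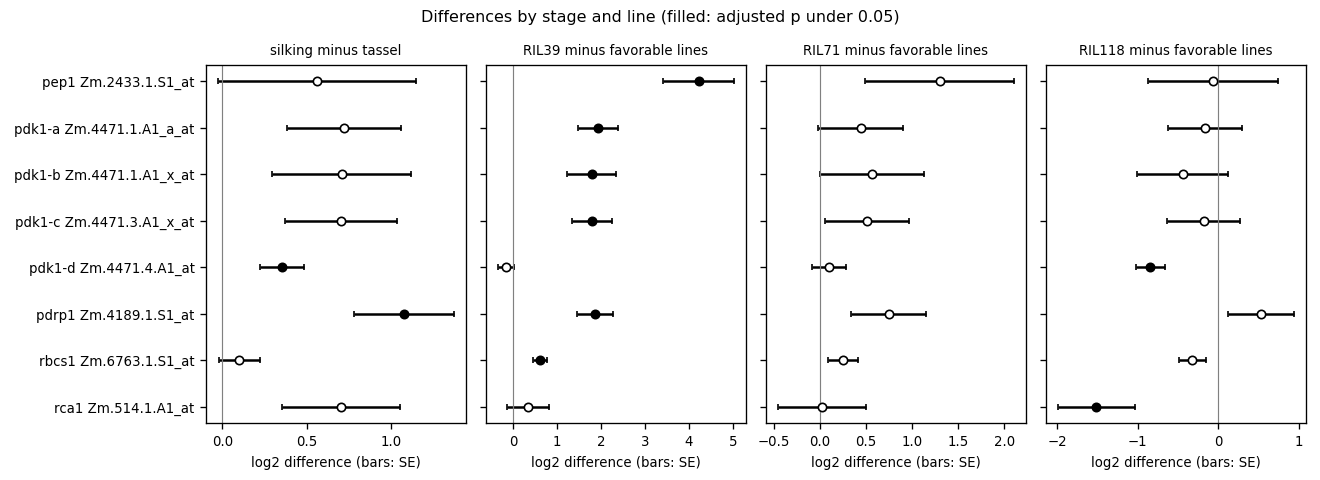
Log2 difference (horizontal axis, bars are the SE of the fit) of the 8 tested probe sets for silking minus tassel and for RIL39, RIL71 and RIL118 against the favorable lines; filled points have an adjusted p under 0.05. 6 of 8 are filled for RIL39 and none for RIL71, and rca1 and pdk1-d are the 2 filled for RIL118.

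The bin 6.06 comparison asked which genes go with the unfavorable allele there, and set the mean of RIL39 and RIL71 against the mean of the favorable lines. In the bin 6.06 lines pep1 had a lowest, median and highest value of 5.59, 7.70 and 9.99, against 2.56, 5.61 and 6.45 in the favorable lines. The groups overlapped, with 5 of the 8 bin 6.06 arrays above all favorable ones. The fitted difference was 2.76 (SE 0.66, limma adjusted p = 0.0110). It is not given as a fold, because 3 of the 8 favorable arrays, at 2.56, 2.59 and 3.18, lay near the floor of the scale. pdrp1 was higher by 1.31 (SE 0.33, 2.47-fold, adjusted p = 0.0158), with 7 of 8 arrays above all favorable ones. Of the pdk1 probe sets, pdk1-a was higher by 1.19 (SE 0.38, adjusted p = 0.0467) and pdk1-c by 1.15 (SE 0.37, adjusted p = 0.0488). rbcs1 was higher by 0.43 (SE 0.13, adjusted p = 0.0412).

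These 5 of 8 stand beside 18.3% of the table called in either direction and 9.91% called higher. The other values were 1.18 (adjusted p = 0.0972) for pdk1-b, 0.18 for rca1 and -0.03 for pdk1-d, and the members' median was 1.16 against -0.02 over all tested probe sets. With the line as a random block, which takes in the spread between lines, 0 of the 8 were called (limma adjusted p = 0.345 for pep1, 0.351 for pdrp1, 0.488 and 0.504 for pdk1 and 0.665 for rbcs1). The calls in the whole table fell from 2023 to 188 there. The calls of pdk1-a and pdk1-c were each lost under 19 of 29 alternatives and that of rbcs1 under 17, and pep1 was at 2.74 (adjusted p = 0.0545) without both second RIL39 arrays. By stage, pep1 was higher by 3.02 (adjusted p = 0.0481) and rbcs1 by 0.63 (adjusted p = 0.0422) at tassel, 2 of 8 members where 14.3% of the table was called and 8.15% called higher. These tassel calls were lost under 18 of 28 alternatives for pep1 and under 15 for rbcs1. At silking 0 of 8 were called by limma against 8.76% (2 with an unadjusted p under 0.05), with pep1 at 2.50 (adjusted p = 0.139) and pdrp1 at 1.23 (adjusted p = 0.150). The difference between the stages in this contrast was called for 0 of 8 members (limma; 0 with an unadjusted p under 0.05), with 0.807% of the table called.

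Each line of this class was also set against the favorable lines alone. RIL39 alone was higher than the favorable lines at 6 of 8 members, beside 27.6% of the table called and 13.8% called higher. Of these 6, 3 are the pdk1 probe sets that moved together, which stand for 1 gene. pep1 was higher by 4.22 (SE 0.81, limma adjusted p = 0.00222) against the same favorable arrays, 3 of them near the floor, pdrp1 by 1.86 (SE 0.41, adjusted p = 0.00531) and rbcs1 by 0.61 (SE 0.16, adjusted p = 0.0159). The pdk1 probe sets were higher by 1.93 (adjusted p = 0.00905), 1.79 (0.0121) and 1.79 (0.0334). All 4 RIL39 arrays were above all 8 favorable arrays at each of these 6, and the exceptions were rca1 (0.34, SE 0.48) and pdk1-d (-0.17, SE 0.18). For this and for the overlaps given above, the share over the whole table was not counted. The 6 were called on these same arrays, so their separation is no further support.

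RIL71 alone gave 0 of 8 calls by limma (0 with an unadjusted p under 0.05), with 11.1% of the table called, and pep1 was at 1.30 (SE 0.81, adjusted p = 0.388), pdrp1 at 0.75 (SE 0.41) and the 3 pdk1 probe sets at 0.44 to 0.57. Tested directly, RIL71 was lower than RIL39 at 1 of 8 members, pep1 (-2.92), with 16.6% of the table called and 8.53% called lower. That call was lost under 17 of 27 alternatives. The control transcripts of the second RIL39 arrays had the lowest 5′ signal relative to 3′ signal of all arrays, at -4.65 and -4.51 on the log2 scale against -4.11 to -2.72 on the others. Without those arrays the RIL39 count fell from 6 to 2 of 8, pep1 (4.18, limma adjusted p = 0.0432) and pdrp1 (2.27, adjusted p = 0.0204). The values of the 4 that lost their calls were 1.93 at pdk1-a (adjusted p = 0.0972), 2.01 at pdk1-b (0.149), 1.91 at pdk1-c (0.0925) and 0.61 at rbcs1 (0.141).

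The list of light-harvesting and photosystem genes, which takes in fdx2, a ferredoxin, also differed between lines. All 9 of its genes passed the filter. Their summed log2 level was 16.09 to 16.44 in RIL39, 15.56 to 16.48 in RIL71, 15.47 to 16.16 in the favorable lines and 14.73 to 15.78 in RIL118. Against the favorable lines 4 of the 9 were higher in RIL39, with a median of 0.61, beside 13.8% of the table called higher. In RIL71 1 of the 9 was higher, with a median of 0.28, where 11.1% of the table was called in either direction. In RIL118 4 of the 9 were lower, with a median of -0.66, beside 8.92% of the table called lower. Over the 20 arrays their mean log2 value correlated with rbcs1 at 0.885, with rca1 at 0.778, with pep1 at 0.795, with pdrp1 at 0.584, and with the pdk1 probe sets at 0.796 to 0.832, but with pdk1-d at 0.440. These are descriptions over arrays that share lines and stages. The part of chloroplast-bearing tissue in the differences between lines was not tested.

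RIL118, against RIL99 and RIL54, asked about the unfavorable allele at bin 9.02. rca1 was lower, by -1.51 (SE 0.48, 2.85-fold, limma adjusted p = 0.0413), with overlapping values of 7.96 to 9.33 against 8.58 to 10.90. pdk1-d was lower by -0.84 (SE 0.18, 1.79-fold, adjusted p = 0.00628). That is 2 of 8, beside 20.7% of the table called and 8.92% called lower. The rca1 call was lost under 20 of 28 alternatives, and the pdk1-d call was lost only where the line was a random block (adjusted p = 0.211). pep1 was at -0.06 (SE 0.81), the 3 other pdk1 probe sets at -0.44 to -0.16, rbcs1 at -0.32 (SE 0.16) and pdrp1 at 0.53 (SE 0.41), none of them called. Against the bin 6.06 lines RIL118 was lower at 6 of 8 members, beside 26.2% of the table called and 12.3% called lower. These were rca1 (-1.70), pep1 (-2.82), rbcs1 (-0.76) and the pdk1 probe sets pdk1-a (-1.35), pdk1-c (-1.33) and pdk1-d (-0.81). RIL71 minus RIL118 was called at pdk1-d (0.94, limma adjusted p = 0.00604) and rbcs1 (0.58, adjusted p = 0.0468). There 21.9% of the table was called. That pair was not called at pep1 (1.36, adjusted p = 0.325), pdk1-a (0.61, 0.454), pdk1-c (0.69, 0.378) or rca1 (1.54, 0.0654). RIL39 minus RIL118 was called at each of these 6, where 24.7% of the table was called. Against both lines together, the calls of pdk1-a and pdk1-c were each lost under 17 of 27 alternatives, that of pep1 under 3 and that of rca1 under 2. Without both second RIL39 arrays, which leaves 1 array in each RIL39 group, pep1 was at -2.80, pdk1-a at -1.35 and pdk1-c at -1.39. The calls of pep1, pdk1-a and pdk1-c were lost in that fit.

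For rbcs1 the values of RIL118 stood differently at each stage. At tassel its RIL118 values of 13.01 and 13.35 lay within or above the favorable ones of 12.59 to 13.11, and at silking its values of 11.996 and 12.89 lay below all of theirs, 12.99 to 13.59. At silking rbcs1 was lower in RIL118 by -0.95 (limma adjusted p = 0.0160) and pdk1-d by -1.15 (adjusted p = 0.00921), 2 of 8 members beside 15.9% of the table, 7.54% lower. At tassel 0 of 8 were called beside 16.3% (limma; 0 with an unadjusted p under 0.05). The rbcs1 stage change was lower in RIL118 than in the favorable lines by -1.24 (SE 0.33, adjusted p = 0.0415), 1 of 8 members with 7.84% of the table called and 4.54% lower, a call lost under 20 of 27 alternatives. The silking difference of rbcs1 was lost without the first silking array of RIL118, at -0.50 (adjusted p = 0.245). That of pdk1-d was lost without either silking array of RIL118, at -1.10 (adjusted p = 0.0816) without the first and -1.20 (adjusted p = 0.0509) without the second. The favorable lines did not differ from each other at any of the 8 members (RIL54 minus RIL99; 0 calls by limma, 0 with an unadjusted p under 0.05), with 16% of the table called.

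**Figure D3:**
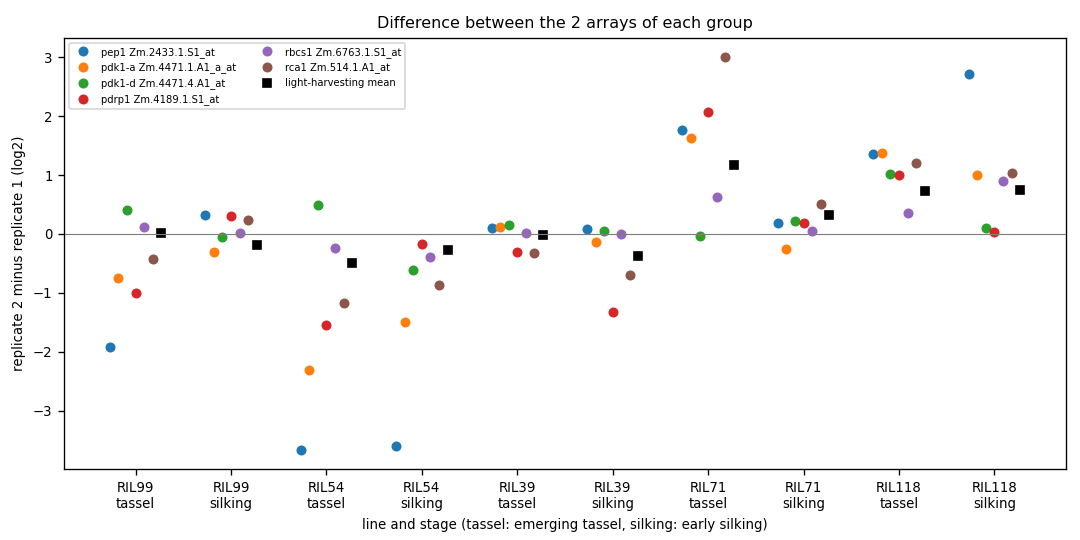
Difference between the 2 arrays of a group, replicate 2 minus replicate 1 (vertical axis, log2), for each line and stage (horizontal axis). Coloured points are probe sets, and black squares are the mean of the list of 9 light-harvesting and photosystem genes. The arrays of RIL54 differ by more than 3 log2 units at pep1 at both stages, and those of RIL39 at tassel by 0.32 at most.

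For some members the 2 arrays of a group lay far apart, and in some groups several members lay apart together. Between the arrays of a group the median gap was 1.56 for pep1, 0.88 for pdk1-a, 0.78 for rca1, 0.66 for pdrp1 and 0.18 for rbcs1 and for pdk1-d. In RIL54, replicate 2 was lower than replicate 1 by -3.66 at tassel and -3.61 at silking for pep1, and by -2.31 and -1.49 for pdk1-a. In RIL71 at tassel replicate 2 was higher by 3.0 for rca1, 2.07 for pdrp1, 1.77 for pep1 and 1.63 for pdk1-a. The light-harvesting mean moved the same way in those groups, by -0.49 and -0.28 in RIL54 and by 1.18 in RIL71 at tassel. The sign of the gap was that of pdk1-a in 7 of 10 groups for each of pep1, pdrp1, rca1, rbcs1 and the light-harvesting mean, and in 5 of 10 for pdk1-d. How often the sign was shared over the whole table was not counted. Over all tested probe sets the arrays of a group correlated at 0.962 in RIL54 at each stage and at 0.956 in RIL71 at tassel.

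**Figure D4:**
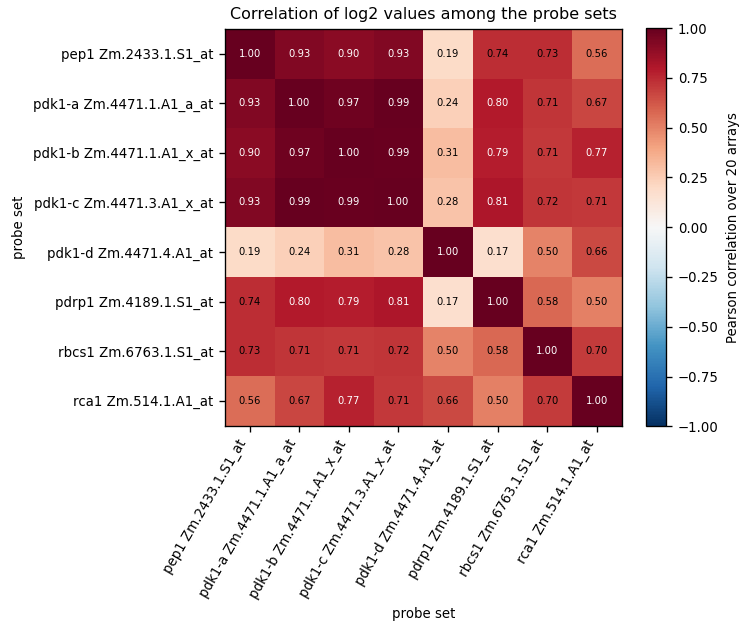
Pearson correlation (colour and printed value) between the log2 values of the 8 tested probe sets over the 20 arrays. The 3 pdk1 probe sets and pep1 form a block at 0.90 to 0.99, and pdk1-d is the row with the lowest values.

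Over all 20 arrays pep1 followed the 3 pdk1 probe sets at correlations of 0.900 to 0.929, and pdrp1 followed them at 0.786 to 0.811. rca1 and rbcs1 were at 0.70 with each other, and pep1 was at 0.56 with rca1. These are descriptions over arrays that share lines, stages and, in pairs, a group. Among all named genes of the table, the one most like pep1 and each of the 3 pdk1 probe sets over 20 arrays was trm1, a thioredoxin m of the chloroplast, with a Pearson correlation of 0.896 for pep1 and 0.928 to 0.932 for pdk1. Next was gpb1, the B subunit of the plastid glyceraldehyde phosphate dehydrogenase of the Calvin cycle, at 0.892 for pep1 and 0.882 to 0.897 for pdk1. In the third place stood fdx2, a ferredoxin (0.873), for pep1, and prpl35-1 (0.840), CP22 (0.846) and sdx1 (0.836) for the pdk1 probe sets. fdx2 and CP22 belong to the list of light-harvesting and photosystem genes used above, as does psaN, named below for rbcs1.

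The likeness of the other members led elsewhere. The genes most like pdrp1 were Hds1 (0.915), CCD (0.809) and bt2 (0.792), the last a subunit of ADP-glucose pyrophosphorylase of starch synthesis. rca1 was most like L-FNRI, a leaf ferredoxin-NADP reductase (0.916), gor1, a glutathione reductase (0.900), and Lsi6, a silicon transporter (0.869). rbcs1 was most like sig2B, a sigma factor of the plastid RNA polymerase (0.923), psaN, a subunit of photosystem I (0.912), and gln1, a glutamine synthetase (0.909). pdk1-d was most like RP-P0, a protein of the ribosomal stalk (0.796), IDI2 (0.794) and adh2, an alcohol dehydrogenase (0.785).

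**Figure D5:**
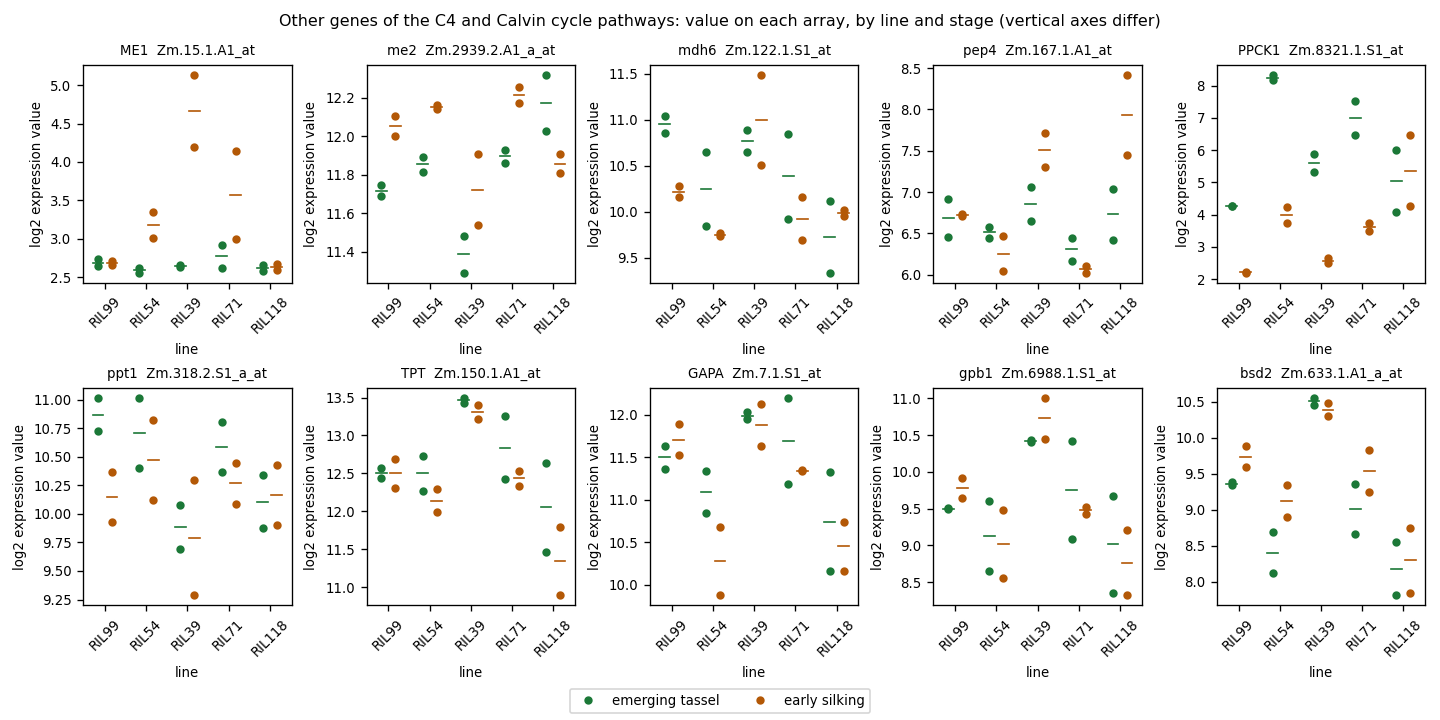
Log2 expression value (vertical axis, a separate range for each gene) of 10 other genes listed with the C4 and Calvin cycle pathways on each array, by line (horizontal axis) and stage (colour). Each gene is at its brightest probe set, and bars are the mean of the 2 arrays. PPCK1 is lower at silking in 4 of 5 lines, and GAPA, gpb1 and bsd2 are high in RIL39.

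The rest of the C4 pathway was read from a list of 9 other genes, of which 8 passed the filter. PDK1 and PDK2 came into the list through a shared name and are kinases of pyruvate dehydrogenase, no C4 enzymes, which leaves 7 genes with 6 tested. PPCK1, a kinase that phosphorylates phosphoenolpyruvate carboxylase, was the one that changed most with stage. It was at 4.26 and 4.26 in RIL99, 8.16 and 8.33 in RIL54, 5.32 and 5.89 in RIL39, 7.53 and 6.47 in RIL71, and 4.07 and 6.01 in RIL118 at tassel. The silking arrays gave 2.20 and 2.24 in RIL99, 4.25 and 3.75 in RIL54, 2.64 and 2.51 in RIL39, 3.74 and 3.48 in RIL71, and 6.48 and 4.26 in RIL118. In each line but RIL118 both silking arrays were below both tassel arrays, and the RIL99 silking values lay near the floor. PPCK1 fell by 2.48 (SE 0.29, limma adjusted p = 1.3e-05), while pep1 was at 0.56 (not called). In RIL118 alone PPCK1 was at 0.33 (SE 0.66, adjusted p = 0.791).

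ME1, the C4 form of NADP-malic enzyme, which releases carbon dioxide in the bundle sheath, stayed under the filter. It lay between 2.56 and 2.92 at tassel in all lines. At early silking it was at 2.66 and 2.71 in RIL99, 3.003 and 3.35 in RIL54, 5.13 and 4.199 in RIL39, 3.001 and 4.14 in RIL71, and 2.59 and 2.67 in RIL118. Its highest values were those of RIL39, as for pep1, but it was not tested. me2, another malic enzyme, rose by 0.19 with stage (SE 0.07, limma adjusted p = 0.0196). mdh6 (a malate dehydrogenase), pep4 (another phosphoenolpyruvate carboxylase), ppt1 (a plastid phosphoenolpyruvate translocator) and the brightest probe set of TPT (the triose phosphate translocator) were not called with stage. The dimmer TPT probe set fell by 0.63 (SE 0.21, adjusted p = 0.0167).

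Against the favorable lines RIL39 was higher at TPT by 0.97 (SE 0.24, limma adjusted p = 0.00960) and at pep4 by 0.64 (SE 0.19, adjusted p = 0.0270), and lower at me2 by -0.39 (SE 0.09, adjusted p = 0.00751) and at ppt1 by -0.71 (SE 0.23, adjusted p = 0.0350). These 4 of 6 were called, 2 in each direction, beside 27.6% of the table called and 13.8% called higher. The dimmer TPT probe set was at 0.49 there (SE 0.29, adjusted p = 0.226) and did not pass. RIL118 was lower at TPT by -0.72 (SE 0.24, adjusted p = 0.0493) and higher at pep4 by 0.79 (SE 0.19, adjusted p = 0.0125). At silking alone it was higher at pep4 by 1.44 (SE 0.27, adjusted p = 0.00330) and at PPCK1 by 2.26 (SE 0.57, adjusted p = 0.0185), where the RIL99 arrays, 2 of the 4 favorable ones, lay near the floor at 2.20 and 2.24. The pep4 call was lost without the second silking array of RIL118 (0.96, adjusted p = 0.0579) and the PPCK1 call without the first (1.15, adjusted p = 0.271). pep1 and pep4, both phosphoenolpyruvate carboxylases, were thus at -0.06 and 0.79 in RIL118 against the favorable lines, and both were higher in RIL39.

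Of 4 other genes listed with the Calvin cycle 3 passed the filter, and of these only GAPA and gpb1 encode parts of an enzyme of the cycle. glk1, a factor known to promote chloroplast development, was at 2.01 to 2.11 on all arrays, at the floor. GAPA, the A subunit of the plastid glyceraldehyde phosphate dehydrogenase, gpb1 and bsd2, a chaperone known from the bundle sheath defective 2 mutant of maize to be needed for Rubisco assembly, were not called with stage at their brightest probe sets. The dimmer probe set of bsd2 rose by 0.37 (SE 0.15, limma adjusted p = 0.0412). All 3 were higher in RIL39 than in the favorable lines, where 13.8% of the table was called higher. bsd2 was higher by 1.29 (SE 0.22, limma adjusted p = 0.000887), gpb1 by 1.21 (SE 0.32, adjusted p = 0.0144) and GAPA by 0.79 (SE 0.25, adjusted p = 0.0368). Their median of 1.21 there stands beside the median of 1.79 of the 8 members. In RIL118 bsd2 was lower by -0.92 (SE 0.22, adjusted p = 0.0108), and GAPA and gpb1 were not called.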

How the data were processed

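Per the submitters' processing notes, the authors made the deposited log2 values with GCRMA, which removes background, normalizes the arrays against each other and combines the probes of each probe set. Its version is not given in the sources used here. No further transformation was applied, and 179 control probe sets were left out. The filter kept probe sets with a log2 value above 5 on 2 or more arrays. limma 3.58.1 (R 4.3.3) fitted 10 group means, with 10 residual and 2.37 prior degrees of freedom. P-values were adjusted by Benjamini-Hochberg over 11033 probe sets, and contrasts weighted lines and stages equally. The number of arrays limits the precision. In 20 simulations with 200 stage differences of 1 (log2), the fit called 86.2% of them, and 5.33% of its calls were false. The simulations changed 200 of 11033 probe sets, while in the data 67.7% of the table was called with stage. These shares hold for a stage comparison over all lines with that few changes, and not for the stage test of the data. They do not give the power for the line comparisons, or for a member of wide spread such as pep1 (SE 0.59 for stage).

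The annotation lists a gene for 1453 probe sets. Chromosomes were looked up in RefSeq's Zm-B73-REFERENCE-NAM-5.0 gene table, on which the bins were not placed. A pathway gene stands at its brightest probe set. All member probe sets, all listed pathway genes and the 3 named genes most correlated with each member are named. The members, lists and tests were chosen with earlier results of these data known. Alternatives were other filters and normalizations, the RNA amount, array weights, a replicate block, the line as a random block and leaving out arrays. Leaving out RIL118 from the line comparisons, and both second RIL39 arrays, was added after seeing the data.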

Additional observations from a re-analysis of the deposited data

Results flagged for a closer look

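In 48 sets of 4 or 10 arrays (a class at a stage, or all lines at a stage), 8 values of the tested members stood far from the rest of their set. The rule would flag about 1 in 20 sets of independent values that share a mean. These sets mix lines and overlap, and several members move together, so the 8 cannot be read against that rate. pep1 was at 2.59 on the second silking array of RIL54, against 6.12 for the nearest other favorable array. pdrp1 was at 11.23 on the first silking array of RIL39, against 9.91 for the nearest of the 10 silking arrays. The first tassel array of RIL71 stood low among the 4 tassel arrays of the bin 6.06 lines for 3 probe sets, at 7.20 for pdrp1, 9.20 for pdk1-b and 9.39 for pdk1-c. pdk1-d was at 7.69 on the first tassel array of RIL118 and at 9.64 on the first silking array of RIL54. rbcs1 was at 11.996 on the first silking array of RIL118, against 12.89 for the nearest other silking array. For 2 genes the stage change differed by limma between RIL118 and the favorable lines. It was -1.24 for rbcs1 (adjusted p = 0.0415), and 3.47 for PPCK1 (SE 0.81, adjusted p = 0.0269), whose RIL99 silking arrays lay near the floor.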

How the results depend on the processing

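Over 29 alternative settings no called value changed its sign, and of the counts recomputed 530 stayed within 1.5 times and 132 moved further. In the order stage, bin 6.06, RIL118 against the favorable lines, RIL71 against RIL39 and line difference, the member counts were 2, 5, 2, 1 and 6. Without a filter on low values they were 2 for bin 6.06, 1 for RIL118, 0 for RIL71 against RIL39, 3 for the line difference and 0 for stage within RIL99. After quantile normalization and after centring each array, the stage count was 1. With the RNA amount as a covariate it was 0, as for stage within RIL99 and RIL71 against RIL39, RIL118 gave 1, and the whole table gave 2055 calls for stage within RIL54 and 788 within RIL118. With array weights the members gave 4 for stage, 4 for stage within RIL99, 1 within RIL39 and 3 for RIL71 against RIL39, and those of all probe sets 2686 for stage within RIL54, 5087 within RIL39, 543 within RIL118 and 1299 for the interaction. With the line as a random block both locus comparisons had 0 members, and the table had 188 calls for bin 6.06 and 157 for RIL118. Without both second RIL39 arrays the members gave 1 for stage, bin 6.06, RIL118 and the line difference and 0 for RIL71 against RIL39; the table gave 315 for stage within RIL39, 713 within RIL118, 1242 for bin 6.06, 682 for RIL71 against RIL39, 181 for the interaction and 3165 for the line difference. For these the cause was not tested.

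The replicate numbers could not be taken as pairs: between the 45 pairs of groups the correlation of their differences ran from -0.436 to 0.512, with 16 above 0.1. With the replicate block the members gave 3 for bin 6.06, 1 for RIL118 and 0 for RIL71 against RIL39, and the stage count in the table was 7384 against 7466.

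Leaving out 1 array at a time, which leaves a group with a lone array assumed to vary like the others, gave member counts of 1 to 5 for stage, 2 to 6 for bin 6.06, 1 to 2 for RIL118, 0 to 3 for RIL71 against RIL39, 3 to 8 for the line difference, 0 to 1 for the interaction, and 0 to 1, 0 to 1, 0 to 2 and 0 to 1 for stage within RIL99, RIL54, RIL71 and RIL118. The table gave 3239 to 5213 calls for stage within RIL99, 2043 to 4272 within RIL54, 1233 to 3266 within RIL39, 1566 to 3858 within RIL71 and 180 to 1497 within RIL118. It gave 1301 to 2925 for RIL118, 1105 to 1958 for RIL54 against RIL99, 1030 to 2025 for RIL71 against RIL39 and 320 to 1195 for the interaction.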
